A study of Mus musculus with 14 samples.

Results

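The ATF and C/EBP genes encode basic leucine zipper (bZIP) transcription factors. Each binds DNA as a dimer, often with another member of the class, and many of them are called on when cells are stressed. ATF4 is made when eIF2α is phosphorylated in the integrated stress response, ATF6-type factors and XBP1 carry the signal of unfolded proteins from the endoplasmic reticulum (ER) to the nucleus, and the C/EBP factors act in inflammation, metabolism and cell differentiation. In the hippocampus C/EBPβ is also known as a factor of memory consolidation. The members were the rows whose symbol was Atf1 to Atf7, Atf6b, Cebpa, Cebpb, Cebpd, Cebpg, Ddit3 or Xbp1. Of these 14 symbols, 9 were among the 7756 genes of the table, 3 C/EBP genes (Cebpa, Cebpb and Cebpd) and 6 others (Atf2, Atf4, Atf5, Atf6b, Atf7 and Xbp1), and all 9 passed the filter on low counts. Atf1, Atf3, Atf6, Cebpg and Ddit3 were not analysed here.

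Hippocampal poly(A) RNA was sequenced from wild-type male C57BL/6J mice that started at an age of 8 weeks and spent 28 days under 1 of 3 conditions. The control group (n = 4) breathed 21% oxygen, the intermittent hypoxia (IH) group (n = 5) had oxygen cycling between 10% and 21% every 2 min for 8 h per day, and the sustained hypoxia (SH) group (n = 5) had 10% oxygen for 8 h per day. Hippocampi of the IH and SH mice were taken after behavioral tests that followed the exposure. Their values thus describe tissue after 28 days of treatment and not tissue under hypoxia. The control libraries came from a preliminary experiment, so that in a comparison with control the treatment and the experiment cannot be told apart. The study's methods do not state whether the mice of that experiment had the behavioral tests. IH and SH were given in chambers with different gas delivery systems, so that between them the oxygen pattern and the apparatus cannot be told apart. Total counts per library on the deposited genes ranged from 7203663 to 11777102. All 6 markers of hippocampal neurons fixed for the check (Neurod2, Zbtb20, Prox1, Wfs1, Fibcd1 and Bok) were present, with a summed level of 20105 to 31451 normalized counts per library. The summed level of the 14 choroid plexus markers varied from 4083 to 124926 summed normalized counts.

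Values below are normalized counts, which are the deposited counts divided by the TMM-scaled library size relative to its mean. Differences are log2 fold changes from edgeR's quasi-likelihood test, and a gene was called at an adjusted p under 0.05 (Benjamini-Hochberg over 7338 genes). In IH vs. control, 2 of the 9 genes were called, Cebpb lower and Xbp1 higher, against 10.9% of all genes tested (4.85% lower and 6.08% higher). In SH vs. control, 4 of the 9 were called, Cebpb, Atf4 and Atf5 lower and Atf2 higher, against 20.6% of all genes (10.5% lower and 10.1% higher). That count was 1 of 9 with GC content and length trends removed, where 5.45% of all genes were called, and 0 of 9 with microglia markers as a covariate, where 0.968% were. In IH vs. SH, 3 of the 9 were called, Cebpb lower and Atf4 and Xbp1 higher in IH, against 2.37% of all genes (0.899% lower and 1.47% higher). Of the 9 members, 2 had groups that did not overlap in IH vs. control (Cebpb and Xbp1), 2 in SH vs. control (Atf4 and Atf5) and 3 in IH vs. SH (Cebpb, Atf4 and Atf5), beside 15.1%, 19.4% and 4.46% of all genes tested. At the limits of the study, a log2 fold change beyond 0.58 with an unadjusted p under 0.05, Cebpb was the 1 member in each comparison, beside 2.68%, 2.71% and 0.981% of all genes, respectively. The median log2 fold change of the 9 genes was 0.01 for IH against control, beside -0.02 over all genes, -0.33 for SH against control, beside 0.0035, and 0.18 for IH against SH, beside -0.0039. The deposited genes had been kept for a signal that differed from control, so these shares hold only within the table.

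**Figure D1:**
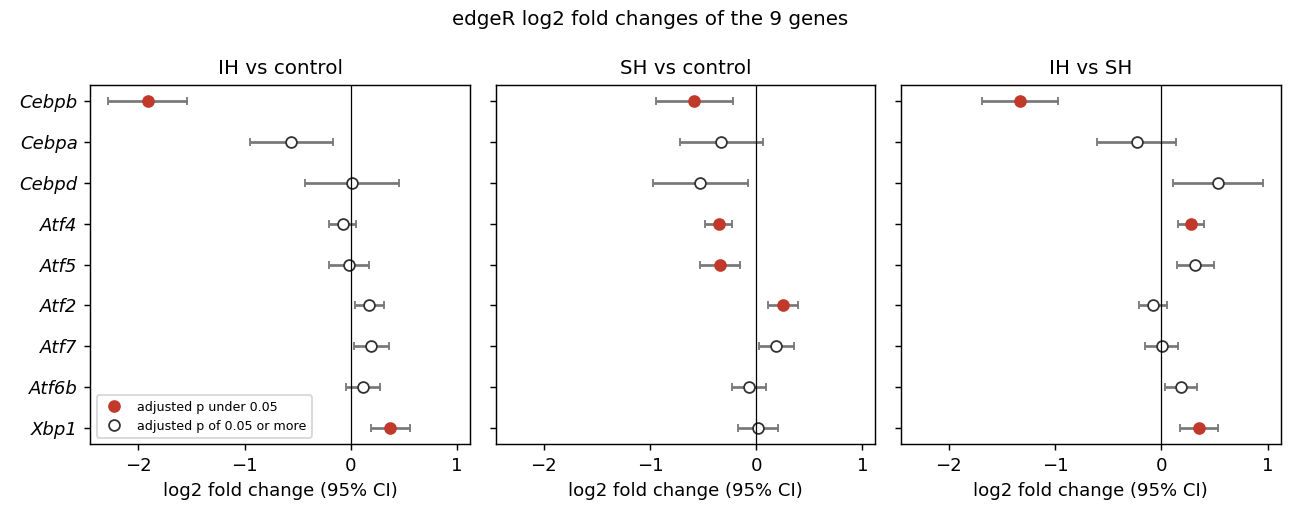
Log2 fold changes of the 9 genes (x axis) in IH vs. control, SH vs. control and IH vs. SH, with bars for the 95% confidence interval of the edgeR fit. Filled points have an adjusted p under 0.05: Cebpb lies at -1.91, -0.58 and -1.33 in the 3 panels, and every other gene lies between -0.56 and 0.53.

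Cebpb encodes C/EBPβ, an activator that is itself induced by cytokines, cAMP and neuronal activity. The gene is a single exon on chromosome 2 from 167530835 to 167532338 (GRCm39, plus strand), with a canonical transcript of 1504 bases and 67.2% GC. The 250 bases before its start are shown because Cebpb had the largest differences of the group and because this stretch holds matches to TGACG, the core of the cAMP response element that CREB and ATF dimers recognise. Capitals mark the matches, on either strand.

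Cebpb, chr2:167530585-167530834, plus strand, GRCm39: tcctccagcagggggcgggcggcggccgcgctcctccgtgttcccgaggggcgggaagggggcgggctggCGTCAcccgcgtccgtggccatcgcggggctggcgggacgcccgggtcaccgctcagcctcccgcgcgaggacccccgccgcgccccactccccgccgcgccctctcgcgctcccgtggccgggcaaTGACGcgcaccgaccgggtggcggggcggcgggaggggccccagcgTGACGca

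This window held 3 such cores, and 0.657% of 21751 windows of the same length before the starts of protein-coding genes held 3 or more. At least 1 core was in 18.0% of all windows. The window of Cebpd held 1 core, shown here in its surroundings of 25 bases, and that of Cebpa held none.

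Cebpd, chr16:15705096-15705120, plus strand, GRCm39: ggggcgtgcgCGTCAgctggggcta

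The full palindrome TGACGTCA, in 1.70% of all windows, was in 0 of the 9 members' windows, as were the ATF4 site TGATGNAAN (3.38% of all windows), the UPRE TGACGTGG (0.556%) and the ER stress response element ERSE (0.115%). The C/EBP site TTGCNNAAN, in 9.31% of all windows, was in that of Xbp1 alone, and the hypoxia response core NACGTG, in 16.9%, was in those of Atf6b and Atf7. The CCAAT box CCAAT, in 36.5% of all windows, was in those of Atf2, Atf4 and Atf6b. These are matches of letters on either strand, and the core lies within each full palindrome.

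Cebpb had 288, 465, 397 and 509 normalized counts in the 4 control libraries. In the 5 IH libraries it had 100.3, 97.8, 113, 114 and 123, and in the 5 SH libraries 267, 206, 244, 361 and 307. All IH libraries were below every control and every SH library, while the SH and control ranges overlapped. These values rest on 317 to 512 counts in control, 88 to 145 in IH and 201 to 337 in SH. The log2 fold change in IH vs. control was -1.91 (95% CI -2.29 to -1.54, adjusted p = 6.28e-05, edgeR), a 3.77-fold lower level. It is read against control libraries of the preliminary experiment alone, so its size cannot be assigned to IH apart from the experiment. Of the 7338 genes tested, it had the lowest log2 fold change and the smallest p in this comparison. In IH vs. SH it was -1.33 (95% CI -1.69 to -0.97, adjusted p = 7.59e-04, edgeR), rank 2 from the lowest fold change and rank 8 by p.

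In SH vs. control Cebpb was lower by a log2 fold change of -0.58 (95% CI -0.94 to -0.22, adjusted p = 0.0260, edgeR). This smaller difference was not called when any 1 of 4 libraries was dropped: control replicate 2 gave -0.52 (adjusted p = 0.0810), control replicate 4 gave -0.47 (0.0858), SH replicate 2 gave -0.49 (0.0601) and SH replicate 3 gave -0.54 (0.0540). It was -0.13 (adjusted p = 0.705, edgeR) after the trends of each library with GC content and transcript length were removed. With the trends removed, Cebpb was still called in IH vs. control (-1.60) and IH vs. SH (-1.47). Peds1, which runs on the opposite strand and shares 312 of the 1504 exon bases of Cebpb, had log2 fold changes of -0.13, -0.18 and 0.05 in IH vs. control, SH vs. control and IH vs. SH (adjusted p = 0.233, 0.0871 and 0.817, edgeR). The libraries were made with a strand-specific kit, but the strand setting of the counting is not given in the sources used here.

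**Figure D2:**
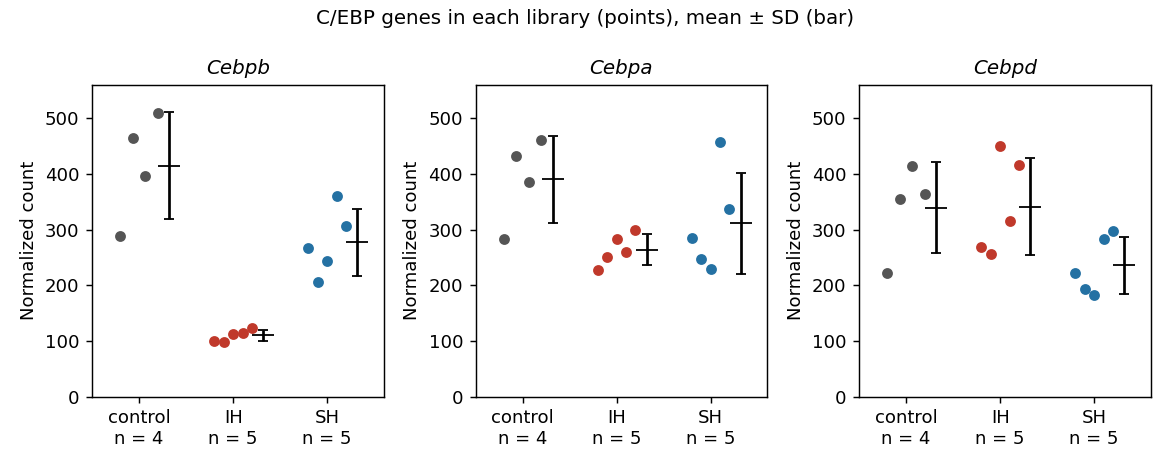
Normalized counts (y axis) of Cebpb, Cebpa and Cebpd in each control, IH and SH library (points), with the mean and SD as a bar. The 5 IH libraries lie between 97.8 and 123 for Cebpb, below all others, whereas the groups overlap for Cebpa and Cebpd.

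Cebpa and Cebpd, the relatives of Cebpb in the table, encode C/EBPα, known for granulocyte, fat and liver cell differentiation, and C/EBPδ, an early factor of the acute-phase response. Both are single-exon genes, Cebpa on chromosome 7 from 34818718 to 34821353 and Cebpd on chromosome 16 from 15705150 to 15708895. Cebpa had 283, 433, 386 and 460.3 normalized counts in control, 228, 250.2, 284, 260.4 and 299 in IH, and 285, 248, 229.65, 457 and 336 in SH. All 5 IH libraries were below the control mean, but 2 of them overlapped the control range at its lowest library. Its log2 fold change in IH vs. control was -0.56 (95% CI -0.95 to -0.17, adjusted p = 0.0587, edgeR), just short of the threshold. Cebpa was called without control replicate 1 (-0.69, adjusted p = 0.0411) or SH replicate 4 (-0.56, 0.0279), with DESeq2 (-0.56, 0.0296) and in a fit without the SH libraries (-0.56, 0.0303). In SH vs. control it was -0.33 (adjusted p = 0.210, edgeR), and it was called without SH replicate 4 (-0.50, adjusted p = 0.0436). In IH vs. SH it was -0.23 (95% CI -0.61 to 0.14, adjusted p = 0.592, edgeR), and -0.057 without SH replicate 4. With GC content and length trends removed, Cebpa was at -0.37 in IH vs. control (adjusted p = 0.277) and at -0.035 in SH vs. control (adjusted p = 0.940, edgeR).

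Cebpd had 223, 355, 415 and 363 normalized counts in control, 269, 257, 451, 315 and 416 in IH, and 223, 194, 182, 282 and 297 in SH. IH and control overlapped widely, and the highest SH library was below 3 of the 4 control libraries. The log2 fold changes were 0.01 in IH vs. control (95% CI -0.43 to 0.45), -0.53 in SH vs. control (95% CI -0.97 to -0.08) and 0.53 in IH vs. SH (95% CI 0.11 to 0.96). None was called (adjusted p = 0.980, 0.0856 and 0.191, edgeR), though that in SH vs. control was called without control replicate 1 (-0.68, adjusted p = 0.0391). Spidr, on the opposite strand, shares 15.0% of the exon bases of Cebpd and had log2 fold changes of 0.62, 0.55 and 0.07 in the same order (adjusted p = 0.0828, 0.0923 and 0.939, edgeR).

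Whether Cebpb moved more than these relatives was tested on its log2 ratio to each of them within a library, by an exact permutation test (2-sided) over the libraries, with 6 tests adjusted together. The ratio of Cebpb to Cebpa averaged 0.08 ± 0.05 (SD, n = 4) over the control libraries, -1.23 ± 0.08 (SD, n = 5) over IH and -0.15 ± 0.16 (SD, n = 5) over SH. The difference of IH from control was -1.31 (exact permutation p = 0.0159, the smallest that 4 against 5 libraries allow, adjusted p = 0.0238), and that of IH from SH was -1.09 (exact permutation p = 0.00794, the smallest that 5 against 5 allow, adjusted p = 0.0238). The ratio to Cebpd was 0.29 ± 0.24 (SD, n = 4), -1.57 ± 0.26 (SD, n = 5) and 0.23 ± 0.16 (SD, n = 5) in control, IH and SH. The differences in IH were -1.86 against control and -1.80 against SH, with the same p-values as for Cebpa. Between SH and control the ratios differed by -0.22 for Cebpa (exact permutation p = 0.0476, adjusted p = 0.0571) and -0.06 for Cebpd (exact permutation p = 0.698), neither of which passed. The difference of the Cebpa ratio in SH passed without SH replicate 3 (-0.28, adjusted p = 0.0343). The ratios were taken without removing the GC content and length trends. With these trends removed in the edgeR fit, Cebpb, Cebpa and Cebpd were at -0.13, -0.035 and -0.53 in SH vs. control. In IH vs. control these genes were at -1.60, -0.37 and 0.0070. The ratios themselves were not tested with the trends removed. Leaving out any 1 control library left 3 against 5, which raised the smallest p that the test allows. Both IH vs. control ratios then had an adjusted p of 0.0536 with the groups still fully separated, so this value was set by the number of libraries.

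**Figure D3:**
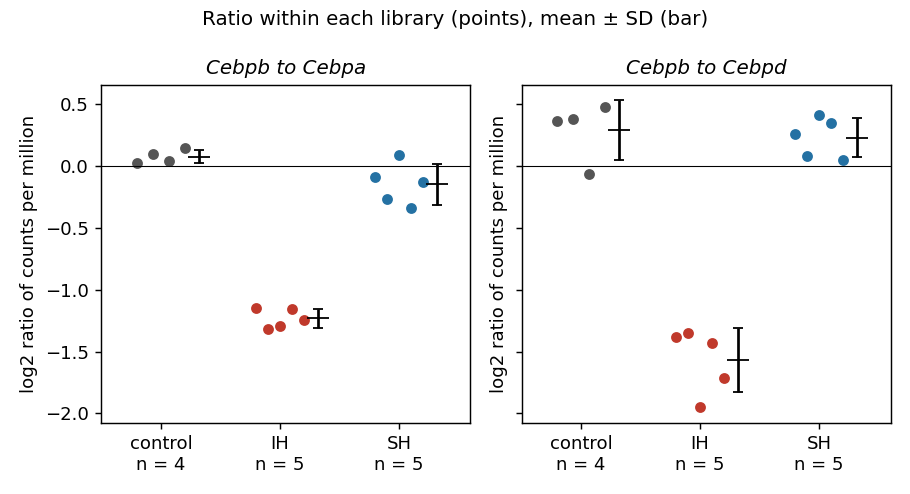
Log2 ratio of Cebpb to Cebpa and of Cebpb to Cebpd in CPM (y axis) in each library (points), with the mean and SD as a bar. In both panels the 5 IH libraries lie below all control and SH libraries, while control and SH overlap.

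Per kilobase of canonical transcript, the order of the C/EBP genes differed between groups. In control, Cebpb had 276 ± 63.9 normalized counts per kilobase (SD, n = 4), Cebpa 149 ± 29.7 and Cebpd 90.6 ± 21.9. In IH, Cebpb had 73.0 ± 7.07 (SD, n = 5), Cebpd 91.1 ± 23.3 and Cebpa 100.6 ± 10.6. The IH libraries of Cebpb (65.1 to 82.1 per kilobase) did not overlap those of Cebpa (86.7 to 114), whereas they overlapped those of Cebpd (68.6 to 120.35). In SH, the order was again that of control, with 184 ± 39.6, 118 ± 34.8 and 62.9 ± 13.8 (SD, n = 5).

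Within the groups, the 3 C/EBP genes varied together. Over the deviations of 14 libraries from their group means, on the log2 scale, Pearson's r was 0.93 between Cebpb and Cebpa, 0.79 between Cebpa and Cebpd and 0.77 between Cebpb and Cebpd, the 3 highest of the 36 pairs of members. Among the 7337 other genes tested, Cebpa ranked 2 in its likeness to Cebpb on this measure and Cebpd ranked 77. The values of a library share its depth, its cell mixture and its GC content trend, so the correlations are a description. With the groups left in, r was 0.77 between Cebpb and Cebpa and 0.0052 between Cebpb and Cebpd.

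**Figure D4:**
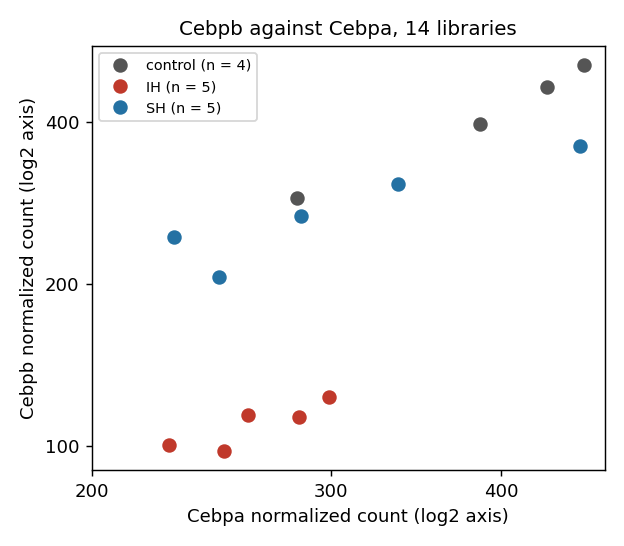
Normalized counts of Cebpb (y axis, log2) against Cebpa (x axis, log2) in the 14 libraries, by group. The control and SH libraries lie along 1 band, and the 5 IH libraries lie along a lower one at 97.8 to 123 normalized counts of Cebpb.

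Outside the family, the 6 genes whose log2 level over the 14 libraries was most like that of Cebpb were Arf6 (r = 0.94), Nrarp (0.91), Acsf3 (0.90), Ybx3 (0.90), H1f10 (0.89) and Gm13889 (0.89). Arf6 encodes a small GTPase of endosome recycling, Nrarp a feedback regulator of Notch signaling and H1f10 a linker histone. They were chosen with the group differences left in, where the low IH values of Cebpb weigh most, so a lower level in IH is part of the choice and is given without a test. Their log2 fold changes in IH vs. control ranged from -0.44 (Ybx3) to -1.09 (H1f10). With the group means taken out, their r with Cebpb ranged from 0.19 (Acsf3) to 0.77 (Ybx3).

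Markers of blood, microglia and endothelium moved in some of the same comparisons. The counts of called markers stand beside 10.9%, 20.6% and 2.37% of all genes called in IH vs. control, SH vs. control and IH vs. SH. Of all genes, 4.85% were lower in IH vs. control and 10.5% in SH vs. control, and 1.47% were higher in IH vs. SH. Of 9 blood markers, 5 were tested, and the hemoglobin genes Hba-a1, Hba-a2, Hbb-bs and Hbb-bt were lower in IH vs. control (log2 fold changes of -0.54 to -0.98, adjusted p = 0.00288 to 0.0354, edgeR) while Lyz2, of myeloid cells, was at 0.50 (adjusted p = 0.257). Their summed level ranged over the control libraries from 2997 to 3272 normalized counts, over IH from 1720.1 to 2462 and over SH from 2230.2 to 3218. With the mean level of these markers as a covariate, Cebpb was at -1.80 in IH vs. control (adjusted p = 0.00397) and at -1.29 in IH vs. SH (adjusted p = 0.00390, edgeR), and it was not called in SH vs. control (-0.52, adjusted p = 0.116). That fit called 1.16% of all genes in IH vs. control and 11.6% in SH vs. control. The summed blood level of every IH library was below every control library, so between them the fit cannot tell marker level and group apart. Of 12 microglia markers, 8 were tested, and 4 (Csf1r, C1qa, C1qc and Tyrobp) were lower in SH vs. control, none was called in IH vs. control, and C1qc was higher in IH than in SH. Their summed level ranged over the control libraries from 5171 to 5774 normalized counts, over IH from 4774 to 5920.45 and over SH from 3908 to 4767, and no tested marker was at 0. In bulk tissue, fewer cells of a type and less RNA per cell cannot be told apart. With the microglia markers as a covariate, Cebpb was at -1.67 in IH vs. control, -1.64 in IH vs. SH and -0.03 in SH vs. control (adjusted p = 3.42e-04, 0.00181 and 0.970, edgeR), in a fit that called 71 of the 7338 genes between SH and control (0.968%) and 38 between the treatments (0.518%). The summed microglia level of every SH library was below all control and IH libraries, so this fit cannot tell marker level and SH apart. In the same fit Cebpa was at -0.33, -0.53 and 0.20 in that order, and Cebpd at 0.35, 0.049 and 0.30, none of them called (adjusted p = 0.238 to 0.952, edgeR). With choroid plexus markers as a covariate, the values in IH vs. control, IH vs. SH and SH vs. control were -1.92, -1.33 and -0.59, and all 3 were called. Of 7 endothelial genes tested, 2 were higher in SH vs. control and 1 was lower in IH vs. SH. Every SH library had a higher summed endothelial level (5595 to 6153) than any control or IH library (at most 5578). No fit had endothelial markers as a covariate, so their bearing on the members was not tested. Of the other marker lists, 1 of 5 neuron and 1 of 6 hippocampal genes tested were higher in each comparison with control. None of the 14 choroid plexus, 6 oligodendrocyte, 6 meningeal or 2 astrocyte genes was called by edgeR.

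Of 22 inflammatory genes linked to the C/EBP factors, upstream of them or as targets, 8 were tested. Stat3, a cytokine-activated transcription factor, was higher in IH vs. control (log2 fold change 0.41, adjusted p = 0.0133), and Il1r1, the interleukin-1 receptor, was higher in IH (0.58, adjusted p = 0.0220) and in SH (0.52, adjusted p = 0.0249, edgeR). Csf1r, the receptor that keeps microglia alive, was lower in SH (-0.22, adjusted p = 0.0467), and it is also on the microglia list. Spp1, which encodes osteopontin, had 52.2 ± 11.9 (SD, n = 4), 99.2 ± 40.7 (SD, n = 5) and 98.1 ± 45.9 (SD, n = 5) normalized counts in control, IH and SH and was not called in any comparison. The list counted 2 higher and 0 lower in IH, 1 higher and 1 lower in SH, and none was called in IH vs. SH by edgeR. Its medians were 0.11, -0.02 and 0.11, and 10.9%, 20.6% and 2.37% of all genes were called.

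Atf4 and Atf5 stand for the integrated stress response. Atf4 encodes its main effector, whose amount is set largely by translation, so that an mRNA count is only part of its control. Atf4 lies on chromosome 15 from 80139372 to 80141745 and was the most abundant member per kilobase, at 1329 ± 90.8 normalized counts (SD, n = 4) in control. Its normalized counts were 2120.3, 2319, 2305 and 2507 in control, 2351, 2115, 2333, 2015 and 2145 in IH, and 1789.9, 1799, 1827, 1858 and 1783 in SH. All SH libraries were below every control and IH library, and they spread by a coefficient of variation of only 1.71%. The log2 fold change was -0.35 in SH vs. control (95% CI -0.48 to -0.22, adjusted p = 0.00169, edgeR), that of IH against SH was 0.27 (95% CI 0.15 to 0.40, adjusted p = 0.0220), while IH and control differed by -0.08 (95% CI -0.21 to 0.05, adjusted p = 0.393). With GC content and length trends removed, Atf4 was still called in SH vs. control and was at -0.25. The IH vs. SH difference was not called without IH replicate 1 (0.25, adjusted p = 0.0512) or with the trends removed and a block for the replicate number (0.25, adjusted p = 0.0528). With the microglia markers as a covariate, Atf4 was not called between SH and control (-0.22, adjusted p = 0.209) or between IH and SH (0.20, adjusted p = 0.241, edgeR).

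Atf5 encodes a factor induced by the same pathway and known in neural progenitors and in the mitochondrial stress response. It lies on chromosome 7 from 44461680 to 44466082. Its normalized counts were 452, 432, 493 and 487 in control, 443, 526, 423, 439 and 466 in IH, and 401, 339, 329, 381 and 389 in SH. As for Atf4, the SH libraries lay below all others. The log2 fold change was -0.34 in SH vs. control (95% CI -0.53 to -0.15, adjusted p = 0.0150, edgeR), -0.02 in IH vs. control (95% CI -0.21 to 0.17, adjusted p = 0.888) and 0.32 in IH vs. SH (95% CI 0.14 to 0.50, adjusted p = 0.0583). The last was called with DESeq2 (adjusted p = 0.0353) and with scaling by library total (0.0498). The SH difference of Atf5 was -0.06 (adjusted p = 0.772) with GC content and length trends removed, and its canonical transcript has 61.7% GC. It was -0.24 (adjusted p = 0.404, edgeR) with the microglia covariate. Il4i1 and Nup62, on the opposite strand, share 180 exon bases with Atf5 and were not analysed here.

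**Figure D5:**
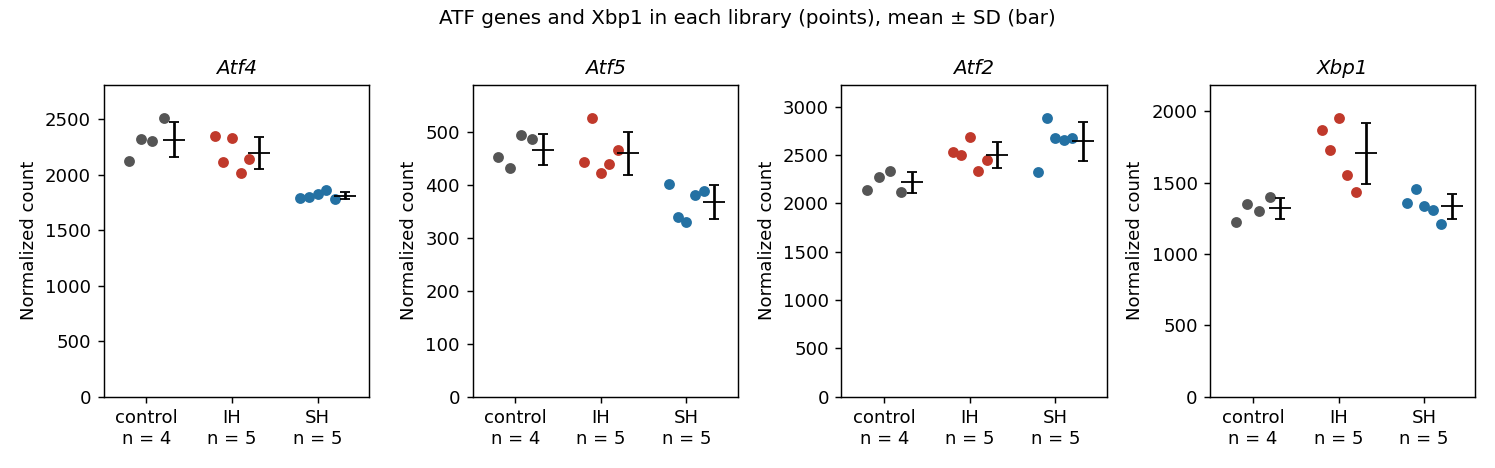
Normalized counts (y axis, from 0) of Atf4, Atf5, Atf2 and Xbp1 in each control, IH and SH library (points), with the mean and SD as a bar. The SH libraries of Atf4 (1783 to 1858) and Atf5 (329 to 401) lie below all others, and the IH libraries of Xbp1 (1432 to 1950.0) lie above all controls.

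Of 21 sensors and regulators of the unfolded protein and integrated stress responses, 9 were tested. None was called in IH vs. control by edgeR, which called 3 for SH against control and 1 for IH against SH, beside 10.9%, 20.6% and 2.37% of all genes. The medians of the list were -0.12, -0.14 and -0.04. Mbtps2, the site-2 protease that releases ATF6 from the Golgi membrane, had a mean of 642 ± 68.2 (SD, n = 4) normalized counts without hypoxia, 741 ± 71.5 (SD, n = 5) under IH and 944 ± 60.3 (SD, n = 5) under SH. It was higher in SH vs. control (log2 fold change 0.55, adjusted p = 0.00113) and lower in IH than in SH (-0.35, adjusted p = 0.0379, edgeR). Ppp1r15a (GADD34), the phosphatase subunit that resets eIF2α, was lower in SH (-0.44, adjusted p = 0.0171), as was Trib1, a pseudokinase that targets C/EBP proteins for degradation (-0.42, adjusted p = 0.0354). Eif2ak2, the kinase PKR, was at -0.41 in IH (adjusted p = 0.0879).

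Of 35 genes listed as targets of ATF4 and CHOP, members left out, 12 were tested. Of these, 1 (Dnajc3) was higher in IH vs. control, 2 were higher and 1 lower in SH vs. control, and none was called in IH vs. SH. Dnajc3, an ER co-chaperone that also restrains PERK, was higher both in IH, by a log2 fold change of 0.53 (adjusted p = 0.00130), and in SH (0.34, adjusted p = 0.00850, edgeR). Stc2, a secreted glycoprotein, was higher in SH (0.60, adjusted p = 0.00714), and Bbc3, which encodes the pro-apoptotic protein PUMA, was lower in SH (-0.57, adjusted p = 0.00813). Slc7a1, a cationic amino acid transporter, had log2 fold changes of -0.07, 0.14 and -0.21 and was not called. The medians of the list were -0.04, 0.05 and 0.01, near those of all genes, of which 10.9%, 20.6% and 2.37% were called.

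Xbp1 and Atf6b belong to the ER branches. Xbp1 mRNA is spliced by IRE1 under ER stress into the form that encodes the active factor, and gene counts do not separate the spliced form. Xbp1 lies on chromosome 11 from 5470606 to 5483027. Its normalized counts were 1220.3, 1352, 1301 and 1399 in control, 1865, 1728, 1950.0, 1552 and 1432 in IH, and 1358, 1457, 1337, 1308 and 1211 in SH. Every IH library was above every control library, and the lowest IH library overlapped SH. Xbp1 was higher in IH than in control by 0.37 on the log2 scale (95% CI 0.19 to 0.56, adjusted p = 0.0147, edgeR) and than in SH by 0.35 (95% CI 0.18 to 0.53, adjusted p = 0.0348), and SH and control differed by 0.02 (95% CI -0.17 to 0.20, adjusted p = 0.908). The IH vs. control difference was not called without control replicate 1 (0.34, adjusted p = 0.0531) or with blood markers as a covariate (0.46, adjusted p = 0.0781). The IH vs. SH difference was not called without control replicate 2 (adjusted p = 0.0510), IH replicate 1 (0.0836), 2 (0.0764) or 3 (0.0738), or SH replicate 1 (0.0502), 3 (0.0756), 4 (0.0789) or 5 (0.0781), with values of 0.30 to 0.36, or with the microglia covariate (0.32, adjusted p = 0.221). Ccdc117, on the opposite strand, shares 22.0% of the exon bases of Xbp1 and had log2 fold changes of -0.04, 0.16 and -0.20 (adjusted p = 0.891, 0.482 and 0.588, edgeR).

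Atf6b encodes the paralog of ATF6, an ER membrane protein that is cleaved under stress. It lies on chromosome 17 from 34866091 to 34874056. Its normalized counts were 1633 to 1745 in control, 1727 to 2008 in IH and 1435 to 1875 in SH, and all groups overlapped. The log2 fold changes were 0.11, -0.07 and 0.18, none of them called (adjusted p = 0.306, 0.538 and 0.203, edgeR). With GC content and length trends removed, the difference in IH vs. control was called at 0.26 (adjusted p = 0.0192), and that in SH vs. control was 0.15.

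Of 28 genes listed as targets of ATF6 and XBP1, 17 were tested. In IH vs. control 13 were higher and 0 lower, in SH vs. control 11 were higher and 0 lower, and 7 were higher and 0 lower in IH than in SH, with medians of 0.58, 0.27 and 0.30. Of all genes tested, 6.08%, 10.1% and 1.47% were higher in these comparisons. Many of these genes were described in earlier results of the same libraries, so the counts are not independent evidence. Hspa5, the ER chaperone BiP, had a mean of 4521 ± 498 (SD, n = 4) normalized counts without hypoxia, 8401 ± 986 (SD, n = 5) under IH and 5906 ± 631 (SD, n = 5) under SH. Its log2 fold changes were 0.89, 0.39 and 0.51 (adjusted p = 2.44e-04, 0.0154 and 0.0124, edgeR). Dnajb11, a co-chaperone of BiP, was at 0.50, 0.21 and 0.29, and Hsp90b1, the chaperone GRP94, at 0.63, 0.27 and 0.36, and both were called in each comparison. Pdia3, a disulfide isomerase of glycoproteins, was higher in IH than in control (0.62) and SH (0.46), and was at 0.17 in SH vs. control (adjusted p = 0.0976).

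Atf2 and Atf7 encode closely related factors that stress-activated kinases phosphorylate and that bind cAMP response elements, often with Jun proteins. Atf2 lies on chromosome 2 from 73644562 to 73723111. Its normalized counts were 2141, 2279, 2339.6 and 2119 in control, 2537, 2499.6, 2689, 2332 and 2455 in IH, and 2321, 2882, 2683, 2662 and 2675 in SH. It was higher in SH vs. control by 0.25 (95% CI 0.12 to 0.39, adjusted p = 0.0138, edgeR), with 1 SH library inside the control range, and was at 0.17 in IH vs. control (95% CI 0.04 to 0.31, adjusted p = 0.0888) and -0.08 in IH vs. SH (95% CI -0.21 to 0.05, adjusted p = 0.596). With GC content and length trends removed, the SH difference was 0.05 (adjusted p = 0.657) and that in IH was -0.01, and the transcript of Atf2 has 40.2% GC, the lowest of the 9. The SH difference of Atf2 was not called with the blood (0.23, adjusted p = 0.0607) or microglia covariate (0.24, adjusted p = 0.231, edgeR). Atf7, on chromosome 15 from 102434381 to 102533934, had normalized counts of 1102 to 1279.6 without hypoxia, 1158 to 1491 under IH and 1220.4 to 1426 under SH. Its log2 fold changes were 0.19, 0.19 and 0.00095 (adjusted p = 0.115, 0.0925 and 0.999, edgeR), and that in IH vs. control was called without IH replicate 3 (0.24, adjusted p = 0.0380). The gene Gm28047 shares 9.89% of the exon bases of Atf7 on the same strand, so that reads there are uncertain.

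Of 35 other bZIP factors, 20 were tested, and 4 were lower and 5 higher in IH vs. control and also 4 and 5 in SH vs. control, both read against the same control libraries, while none was called in IH vs. SH by edgeR. Of all genes, 10.9%, 20.6% and 2.37% were called in the 3 comparisons, and the medians of the list were -0.10, 0.03 and -0.02. The AP-1 genes Fos, Junb and Jund were lower in both. Fos, which is induced within minutes of neuronal activity, had a mean of 478 ± 89.3 (SD, n = 4) normalized counts without hypoxia, 169 ± 60.8 (SD, n = 5) under IH and 228 ± 31.7 (SD, n = 5) under SH, with log2 fold changes of -1.49 and -1.07 (adjusted p = 6.25e-04 and 0.00298, edgeR). Junb was at -1.08 and -1.07, and Jund at -0.59 and -0.59. Between IH and SH, Fos was at -0.43 (adjusted p = 0.304), Junb at -0.01 (adjusted p = 0.993) and Jund at 0.00023, where Cebpb was at -1.33. Crebl2, a regulator of CREB, was higher in SH (0.39, adjusted p = 0.00165). Of 14 CREB coactivators and kinases, 6 were tested, and Rps6ka5 (MSK1), a kinase that phosphorylates CREB, was the 1 called, higher in SH vs. control (0.31, adjusted p = 0.0308), while Crtc3, Camk4 and Mapk8 were not called in any comparison.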

How the data were processed

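RNA-seq was analysed for 14 hippocampal libraries (4 control, 5 IH and 5 SH), each labelled as a replicate of its group. Per the submitters' processing notes and the study's methods, the authors made base calls with bcl2fastq 2.19, trimmed paired-end reads with fastp 0.23.4, mapped them to GRCm39 with HISAT2 2.2.1 and quantified genes with StringTie 2.2.1. The annotation and strand setting are not given in the sources used here. The deposited values are estimated counts per gene, before normalization, and the authors kept 7756 protein-coding genes above a minimum count whose processed signal differed from control. Values of 10 genes that were not whole were rounded.

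The 7338 genes whose group means all reached 40 counts were fitted with edgeR 4.0.16 in R 4.3.3 (TMM scaling, quasi-likelihood test, all 3 groups in 1 fit), and p-values were adjusted by Benjamini-Hochberg over these genes. The calculation was tested on simulated data. Ratios of Cebpb to its relatives used CPM with a pseudocount of 0.5. Locations, lengths and windows before the start sites came from the GENCODE annotation of GRCm39, in which 7609 symbols matched directly, 1 by a synonym and 146 did not. Alternatives included other scalings, filters and tests (DESeq2 1.42.0 and limma 3.58.1), fits with covariates, a replicate block and leaving out each library. The members and lists were chosen with earlier results of these data known. Named were all members, from each pathway list up to 4 genes with the smallest p over the 3 comparisons and all called genes where these numbered 6 or fewer, and the 6 genes most like Cebpb. No 2 libraries of a group agreed within counting noise (chi-square per degree of freedom of at least 8.96 over 26 pairs). The labels do not say that replicates are separate animals beyond their numbers, so p-values measure the spread between these samples.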

Additional observations from a re-analysis of the deposited data

Results flagged for a closer look

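For 3 genes the effects of IH and SH against the shared control differed by the test of IH vs. SH itself (edgeR, adjusted p under 0.05). The genes were Cebpb (-1.33 on the log2 scale), Xbp1 (0.35) and Atf4 (0.27). Cebpb was lower in IH than in SH and control. Its smaller difference in SH vs. control (-0.58) was not called when any 1 of 4 libraries was left out or with GC content and length trends removed (-0.13). Nor was it called with the blood (-0.52) or microglia (-0.029) covariate, and microglia marker level and group cannot be told apart there. The difference of Cebpb between IH and SH was called under each of 27 alternatives. That of Xbp1 was lost under 11 of 27, among them the leaving out of any 1 of 8 libraries (adjusted p up to 0.0836, edgeR), and that of Atf4 under 3 of 27 (without IH replicate 1, adjusted p = 0.0512, with the microglia covariate, 0.241, and with GC content and length trends removed and the replicate block, 0.0528, edgeR). Against control, Xbp1 was called higher in IH and not in SH, and Atf4 lower in SH and not in IH. The highest and lowest library of each gene in each group was compared with its neighbours by Dixon's test at the 95% level, which chance passes in about 1 of 20 groups, and no library passed it in the 27 groups tested.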

How the results depend on the processing

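Over 729 alternative values of the 27 single-gene differences, 645 kept their direction and side of the threshold, 32 were no longer called, 13 became called and 39 changed sign, mostly values near 0. Cebpb was called in IH vs. control (-2.05 to -1.60) and IH vs. SH (-1.64 to -1.22) under each of 27 alternatives. In SH vs. control it ranged from -0.72 to -0.47 when 1 library was left out, and it was not called with GC content and length trends removed (-0.13, and -0.17 with the replicate block) or with blood (-0.52) or microglia (-0.029) markers as a covariate. These 2 covariates and the GC fit with the block were chosen after seeing the data, and causes were not tested. Blood marker level and group cannot be told apart between IH and control, nor microglia marker level and group between SH and the other groups.

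The number of members called was 1 in each comparison at the limits of the study. In IH vs. control it was 1 with the blood covariate, where the share of all genes called fell from 10.9% to 1.16%. In SH vs. control, where 20.6% of all genes were called, it was 2 with the blood covariate (11.6% of all genes), 0 with the microglia covariate (0.968%) and 1 with GC content and length trends removed, without the block (5.45%) or with it (5.29%). In IH vs. SH it was 1 with the microglia covariate (0.518% of all genes, against 2.37%) and 1 to 3 when 1 library was left out (1 without IH replicate 1). Leaving out 1 library gave -1.33 to -1.29 for the Cebpb to Cebpa ratio in IH vs. control, -0.28 to -0.18 for it in SH vs. control, -1.98 to -1.76 for the Cebpb to Cebpd ratio in IH vs. control and -0.18 to 0.0038 for it in SH vs. control. With 3 control libraries the IH vs. control ratios had an adjusted p of 0.0536, with the permutation p at the smallest value that 3 against 5 libraries allow. The ratios were not recomputed with GC content and length trends removed.

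With GC content and length trends removed, and again with the block added, signs turned in IH vs. control for Atf2 (-0.010 and -0.0100) and Atf5 (0.17 and 0.15), in SH vs. control for Atf6b (0.15 and 0.17) and in IH vs. SH for Atf7 (-0.011 and -0.011), and with the block for Atf4 (0.0044) and Cebpd (-0.073) in IH vs. control. With the microglia covariate, Atf5 was at 0.025 in IH vs. control, and Atf6b, Cebpa and Cebpd at 0.068, 0.20 and 0.30 in SH vs. control. With the blood covariate, Atf6b was at 0.0028 in SH vs. control and Atf7 at -0.051 in IH vs. SH. Scaling by library total gave 0.00086 for Atf5 in IH vs. control and -0.00030 for Atf7 in IH vs. SH. The 80th percentile gave -0.0022 and the study's processing -0.0055 for Cebpd in IH vs. control. For Atf7 in IH vs. SH, the value was -0.0029 with no filter, -0.0017 with filterByExpr and -0.00079 with the study's processing. Leaving out 1 library gave -0.074 to 0.0083 for Atf5 and -0.15 to 0.12 for Cebpd in IH vs. control, -0.018 to 0.050 for Xbp1 in SH vs. control and -0.038 to 0.051 for Atf7 in IH vs. SH. Xbp1 in IH vs. SH was not called in a fit of these 2 groups (adjusted p = 0.0823) or with the study's processing (0.0585).

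Whether replicate numbers pair the samples was not tested against chance. The correlation of deviations over 13 same-numbered pairs was -0.288 to 0.469, over 0.1 in 6, and 5 of 14 libraries correlated best with their own number. With the replicate block, Cebpa was called in IH vs. control (-0.59, adjusted p = 0.0393) and Cebpd in SH vs. control (-0.59, adjusted p = 0.0375, edgeR), Cebpd in IH vs. control was at -0.077 and Atf7 in IH vs. SH at -0.00065. At the depth of these libraries and 4 or 5 per group, intervals of the C/EBP genes were wide, and a difference that was not called is not shown to be absent.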
